A study of Mus musculus with 24 samples.

Results

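The cerebellum of control mice was compared between 5 and 2 months of age by RNA sequencing. The members are the 6 cerebellum libraries of the series that the labels give as WT, out of 24 libraries in all: mice 1, 3 and 5 at 2 months and mice 7, 9 and 11 at 5 months. The series comes from a study of mice that make poly-PR, a chain of proline and arginine repeats of the kind translated from the expanded repeat of C9orf72 in amyotrophic lateral sclerosis and frontotemporal dementia. The study set heterozygous mice beside controls in the cerebellum at 2 and 5 months and in the cortex and lumbar spinal cord at 6 months, with 3 libraries in each group. Both genotypes are on a C57BL/6 background and carry the floxed GFP-PR28 construct in the Rosa26 site, behind a stop. In the heterozygous mice (GFP-PR28 flox/+; Thy1-Cre+) Cre from the Thy1 promoter removes the stop in neurons, and the control mice (GFP-PR28 flox/+ without Thy1-Cre, as the study describes its controls) keep it at both ages. The control mice thus carry an unexpressed transgene and are not plain C57BL/6 mice. The question taken here is how the transcriptome of the control cerebellum differs between these ages. Each library is from a different mouse and holds between 13123582 and 16266434 counted read pairs. Mouse 1 has 14166962, mouse 3 15199953 and mouse 5 13123582 read pairs, and mouse 7 has 14974504, mouse 9 15931683 and mouse 11 16266434. The labels give no date or batch of dissection, extraction or sequencing, so age and any such batch cannot be told apart.

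The cerebellar cortex is built on granule cells, which send parallel fibres to Purkinje cells, the sole output of the cortex, while interneurons of the molecular layer, Golgi cells and unipolar brush cells shape this traffic. Its wiring and most of its myelin are laid down in the weeks after birth, and mice of both ages are young adults. Oligodendrocytes go on adding and remodelling myelin in adult life, and neurons switch immediate early genes on and off with their activity.

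The cerebellar label was checked against marker genes. Pcp2, a Purkinje cell gene, was at 202 to 322 CPM (read pairs of the gene per 1e6 read pairs of the library, scaled by TMM) in the 6 libraries and at 0.270 to 0.574 CPM in the control cortex. Gabra6, the granule cell subunit of the GABA-A receptor, was at 643 to 872 CPM in the 6 libraries and at most at 0.427 CPM in the control cortex. All 14 Purkinje cell and all 14 granule cell markers were at 1 CPM or more in each of the 6 libraries. Neurod6, a transcription factor of cortical neurons, was at 4.47 to 6.08 CPM in the cerebellum and at 57 to 69.9 CPM in the cortex, lower in the cerebellum but not absent. The spinal cord gene Hoxc5 reached 0.0673 CPM in the cerebellum and was at 5.38 to 6.42 CPM in the control cord, and Chat had no read pair in any of the 6 libraries. All 6 mice were male by their RNA. The Y-linked Ddx3y was at 44.2 CPM in mouse 1 and at 96.2 to 111 CPM in the others. Xist, which is made from the inactive X of females, was at most at 0.724 CPM, the value of mouse 1. Genes of the choroid plexus, the epithelium that makes cerebrospinal fluid and borders the cerebellum, varied most among the lists of other cell types: the 14 on the list summed to 1695, 2208 and 1657 CPM at 2 months and 2029, 698 and 1174 CPM at 5 months. Mouse 9 and then mouse 11 were lowest, mouse 7 was among the 2-month values, and Ttr, the carrier of thyroxine in cerebrospinal fluid, was the most abundant of these genes in each library.

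The library of mouse 1 stood apart from the other 5. Its genes deviated from the 6-library mean with an SD of 0.381 on the log2 scale, against 0.166 to 0.188 in mice 3, 5, 7, 9 and 11. The Spearman correlation, across genes, of that deviation with GC content was 0.43 in mouse 1 and between -0.29 and -0.17 in the other 5, so mouse 1 alone had the positive sign (genes are not independent replicates). The 6-library mean includes mouse 1, so a trend in mouse 1 tilts the other 5 the opposite way. Their negative sign is therefore not separate evidence. With an offset for GC content and transcript length the SD of mouse 1 was still 0.334. The share of mitochondrial read pairs was 4.51% in mouse 1 and 4.13% to 4.38% in the others. Single genes show the shift: Ptgds, the prostaglandin D synthase of the meninges, was at 1082, 559 and 602 CPM at 2 months and 664, 718 and 690.4 CPM at 5 months, and Clock at 95.7, 168 and 169 CPM at 2 months and 172, 154 and 151 CPM at 5 months. For Ptgds mouse 1 was above and for Clock below all 5 other mice, the 2 of its own age included. The called genes named here and the list medians are therefore given with and without mouse 1.

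**Figure D1:**
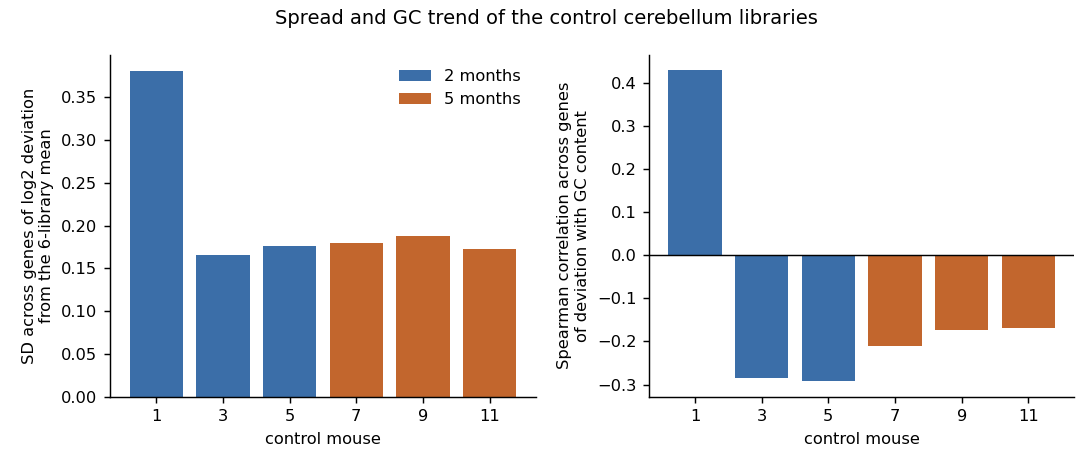
Left, SD across genes of each library's log2 deviation from the mean of the 6 control cerebellum libraries. Right, Spearman correlation across genes of that deviation with the GC content of the gene; blue bars are 2-month and orange bars 5-month mice, and mouse 1 has the tallest bar in the left panel and is the single library above 0 in the right panel.

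In the cerebellum without mouse 1, 169 genes rose and 135 fell from 2 to 5 months, with 16529 genes tested (1.02% higher and 0.817% lower, adjusted p below 0.05 and a log2 fold change beyond 0.2 by edgeR). With all 6 libraries 16216 genes were tested and 0 were called in either direction (0% and 0%) by edgeR, although 1135 had an unadjusted p below 0.05, where uniform p-values would give 811. On the same 6 libraries DESeq2 called 14 genes higher and 21 lower, and limma voom, with weights that count each library by its scatter and gave mouse 1 a weight of 0.103 against 1.18 to 2.08, called 123 higher and 110 lower. Of these voom calls 117 and 105 were also called by edgeR without mouse 1, which is 69.2% of the 169 and 77.8% of the 135; both fits use the other 5 libraries. The typical scatter between mice of 1 group, the biological coefficient of variation of edgeR, was 0.124 with mouse 1 and 0.0411 without it. The changes were mostly small: the median size of the log2 fold change was 0.33 among the genes called higher and 0.35 among those called lower, and 7 and 10 of them passed a fold of 2, the largest rise on the log2 scale being 2.63 and the largest fall 1.90, both in genes outside the rule for naming genes. Of the called genes 162 and 129 were protein coding. A gene that rose or fell in what follows was called by edgeR without mouse 1, with 2 mice at 2 months against 3 at 5 months, and log2 fold changes and adjusted p are from that fit unless another is named. Counts of called list members are to be read against the 1.02% and 0.817% of all tested genes, of which 49.9% had a negative log2 fold change and 13.8% an unadjusted p below 0.05. The ages did not overlap in 30.1% of all tested genes without mouse 1, and in 17.6% with all 6 libraries. All 169 and all 135 called genes were without overlap in the libraries of that fit, so a lack of overlap there adds no weight to a call. Calls of single genes were also tried with each of the 5 libraries left out in turn, with DESeq2, with its size factors, with the GC and length offset, with limma voom, without a filter, with non-robust dispersions and in a fit of 11 cerebellum libraries, in which the heterozygous mice add to the estimate of scatter; these alternatives were chosen after seeing the data, and those that ended a call are named at the end of each account. With all 6 libraries the adjusted p of the called genes named here ran from 0.0517 for Eomes to 0.981 for Ndufa12, and of these genes Ptgds alone changed direction. The counts also rest on other libraries: without mouse 3 they were 66 higher and 60 lower, without mouse 5 43 and 54, without mouse 7 196 and 218, and without mouse 11 112 and 107. DESeq2 without mouse 1 called 75 higher and 69 lower.

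**Figure D2:**
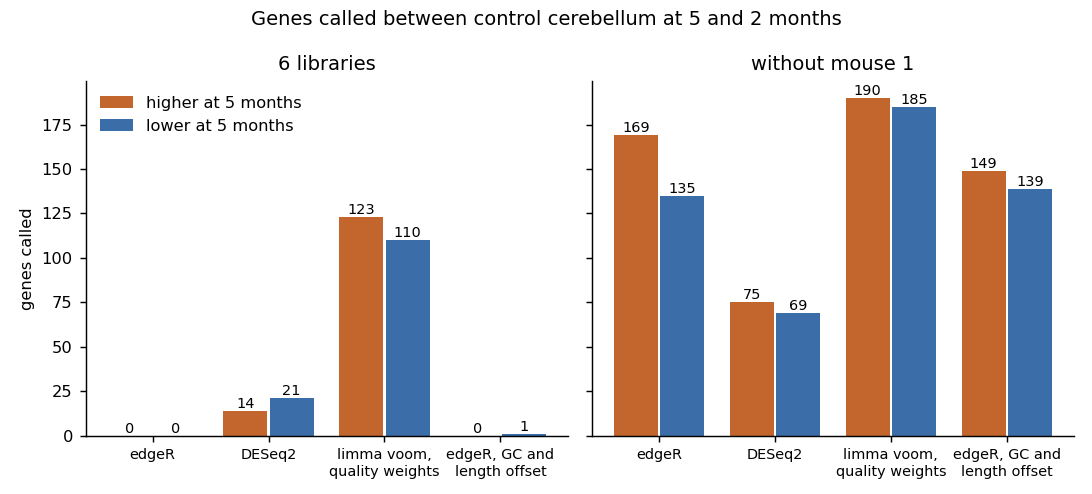
Number of genes called higher (orange) and lower (blue) at 5 months by 4 methods, with all 6 libraries on the left and without mouse 1 on the right. edgeR gave 0 and 0 on the left and 169 and 135 on the right.

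Eomes fell by more than 1 on the log2 scale, with the smallest adjusted p of all genes. Eomes (ENSMUSG00000032446, chr9:118478212-118486132 on GRCm38), a T-box transcription factor that in the adult cerebellum marks unipolar brush cells, excitatory interneurons of the granule layer, was at 50.8, 49.9 and 49.7 CPM at 2 months and 22.1, 21.6 and 26.6 CPM at 5 months; per-mouse values are in the order 1, 3, 5 and 7, 9, 11 throughout. The 3 younger mice lay close together, mouse 1 included, and every older mouse was far below all of them. Its log2 fold change was -1.09 (SE 0.0789, n = 2 and 3, adjusted p = 5.85e-11) without mouse 1 and -1.10 (adjusted p = 0.0517) with all 6 libraries. With a GC and length offset on the 6 libraries it was the one gene called (adjusted p = 0.0166). Eomes lost its call with 11 libraries in the fit (adjusted p = 0.155). Plcb4, Lmx1a and Sln, also on the unipolar brush cell list, did not pass, at -0.046, -0.35 and 0.45, and the list's median was -0.074 (-0.081 with mouse 1). Of these, Plcb4 is also strongly expressed by Purkinje cells. In bulk tissue fewer cells of a type and less RNA per cell cannot be told apart. A long noncoding gene, Gm33460, overlaps Eomes on the opposite strand, and since the strand setting of the counting is not given, some read pairs may be assigned to either.

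Of 18 immediate early genes tested, which neurons switch on within minutes of activity, 6 fell from 2 to 5 months. In the list 16 of 18 had a negative log2 fold change and the median was -0.44 (-0.53 with mouse 1), against 0.817% called lower, 49.9% negative and a median of 0.000450 over all tested genes. Nr4a3 (ENSMUSG00000028341, chr4:48045153-48086447), an orphan nuclear receptor, was at 40.3, 28.3 and 34.1 CPM at 2 months and 13.1, 15.9 and 15.1 CPM at 5 months. Nr4a1 (ENSMUSG00000023034, chr15:101254269-101274795), the receptor also called Nur77, was at 42.1, 29.3 and 36.3 CPM at 2 months and 18.5, 16.9 and 20.1 CPM at 5 months. In both genes all 3 older mice were below all 3 younger mice, and the highest value was that of mouse 1. Nr4a3 fell by 1.08 (SE 0.0993, adjusted p = 1.76e-08) and Nr4a1 by 0.82 (SE 0.0957, adjusted p = 2.49e-06) on the log2 scale. Npas4 (ENSMUSG00000045903, chr19:4984355-4990316), a transcription factor induced by calcium influx, was at 5.28, 7.87 and 8.70 CPM at 2 months and 3.77, 3.63 and 4.47 CPM at 5 months. Egr4 (ENSMUSG00000071341, chr6:85511121-85513589), a zinc finger factor of the Egr family, was at 13.7, 10.3 and 11.2 CPM at 2 months and 6.13, 5.53 and 5.59 CPM at 5 months. The ages did not overlap in either gene; mouse 1 had the lowest 2-month value of Npas4 and the highest of Egr4. Npas4 had a log2 fold change of -1.06 (SE 0.173, adjusted p = 0.000220) and Egr4 one of -0.90 (SE 0.151, adjusted p = 0.000287). The third receptor of its family, Nr4a2 (ENSMUSG00000026826, chr2:57106830-57124003), fell from 19.7 ± 3.50 to 11.5 ± 1.0 CPM without mouse 1 (mean ± SD, n = 2 and 3). Nr4a2 had a log2 fold change of -0.77 (adjusted p = 0.000147), and mouse 1 was at 22.1 CPM. Fosl2 (ENSMUSG00000029135, chr5:32135801-32157842), a partner of Jun in AP-1, fell from 14.8 ± 0.227 to 8.73 ± 0.435 CPM without mouse 1 (n = 2 and 3). Its log2 fold change was -0.76 (adjusted p = 0.000272), and mouse 1 was at 19.3 CPM. Fos, the best known of these genes and picked here after its values were seen, was at 34.5, 21.2 and 29.1 CPM at 2 months and 10.1, 5.73 and 11.9 CPM at 5 months. Its ages did not overlap either, but with a log2 fold change of -1.44 (adjusted p = 0.260) it did not pass. Dusp1, a phosphatase induced with Fos, also missed at -0.82 (adjusted p = 0.301), while Egr1 and Arc were at -0.051 and -0.0044. The list summed to 480.2, 377 and 399.6 CPM at 2 months and 298, 272 and 296 CPM at 5 months, with Jun as its most abundant member. In the fit of 11 cerebellum libraries 3 of these genes were called lower in place of 6. With all 6 libraries edgeR called 0 of the list lower, DESeq2 7 and limma voom 6. The calls of Npas4, Egr4 and Fosl2 held in all these alternatives without mouse 1. Nr4a2 lost its call without mouse 5 (adjusted p = 0.102). Nr4a3 (adjusted p = 0.485), Nr4a1 (adjusted p = 0.278) and Nr4a2 (adjusted p = 0.369) lost their calls with 11 libraries in the fit. In the 6-library fit none of these passed (adjusted p from 0.216 to 0.60), and the log2 fold changes were -1.22 for Nr4a3, -0.95 for Nr4a1, -0.88 for Npas4, -1.03 for Egr4, -0.83 for Nr4a2 and -0.90 for Fosl2.

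**Figure D3:**
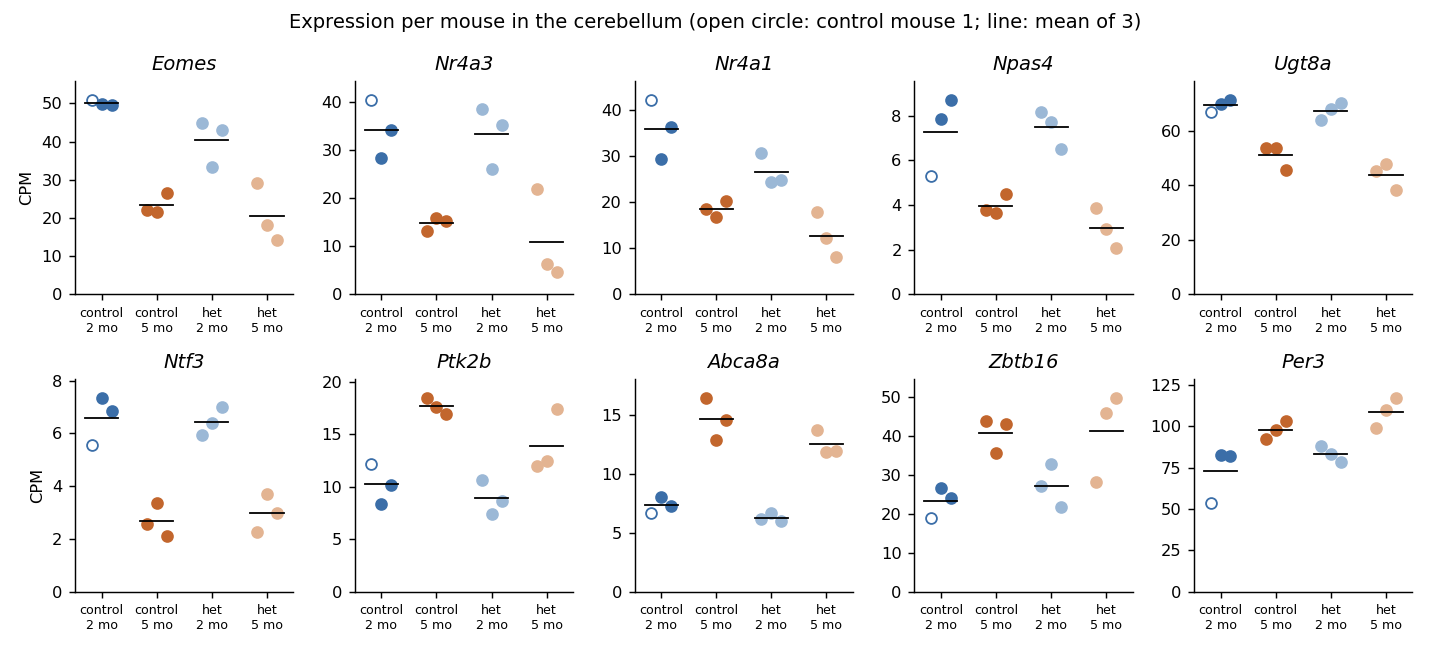
CPM of 10 genes in each cerebellum library, as points, for control and heterozygous (het) mice at 2 and 5 months (mo); black lines are means of 3 mice and the open circle is control mouse 1. In controls each of Eomes, Nr4a3, Nr4a1, Npas4, Ugt8a and Ntf3 is lower in all 3 mice at 5 months than in any at 2 months, and Ptk2b, Abca8a, Zbtb16 and Per3 are higher.

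The promoters of the called immediate early genes are shown because these 6 genes all fell. Many promoters that respond to activity hold the cyclic AMP response element, bound by CREB, whose core is TGACG. In the 300 bases from 250 before to 50 after the start (RefSeq, GRCm38.p6) the motif TGACG or its reverse complement CGTCA was searched, which covers both strands; it is printed in capitals. It is in 20.8% of the 32851 promoters of the table, at least 2 times in 5.01% and at least 4 times in 0.231%. Of the 20 listed immediate early genes 15 have an entry and 13 of these hold it. All 6 called genes have an entry, and 5 hold the motif: Nr4a1, Nr4a2 and Nr4a3 4 times each, Npas4 and Egr4 2 times each, and Fosl2 does not hold it. The windows of those 5 are chr6:85513540-85513839 (minus strand) for Egr4, chr19:4989922-4990221 (minus strand) for Npas4, chr15:101266596-101266895 (plus strand) for Nr4a1, chr2:57123954-57124253 (minus strand) for Nr4a2 and chr4:48045055-48045354 (plus strand) for Nr4a3, each 5′ to 3′. The motif is only a part of the element, whose full site has 8 bases. That full site was in 1.79% of all promoters searched. It was in none of the 6 called genes, and it was in Dusp1 and Btg2, which were not called. A match describes the letters of the window and no binding was measured.
Egr4: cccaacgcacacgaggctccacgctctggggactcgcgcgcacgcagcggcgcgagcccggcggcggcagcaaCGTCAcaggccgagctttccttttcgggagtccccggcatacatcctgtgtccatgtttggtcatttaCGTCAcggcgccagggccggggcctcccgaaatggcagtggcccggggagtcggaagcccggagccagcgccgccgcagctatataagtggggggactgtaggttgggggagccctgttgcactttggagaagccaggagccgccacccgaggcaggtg
Npas4: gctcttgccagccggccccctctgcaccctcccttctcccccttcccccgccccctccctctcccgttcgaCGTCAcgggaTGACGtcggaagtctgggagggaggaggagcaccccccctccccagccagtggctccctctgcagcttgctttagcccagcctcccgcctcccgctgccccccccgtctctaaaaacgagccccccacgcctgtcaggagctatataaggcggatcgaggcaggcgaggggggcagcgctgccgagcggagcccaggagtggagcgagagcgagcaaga
Nr4a1: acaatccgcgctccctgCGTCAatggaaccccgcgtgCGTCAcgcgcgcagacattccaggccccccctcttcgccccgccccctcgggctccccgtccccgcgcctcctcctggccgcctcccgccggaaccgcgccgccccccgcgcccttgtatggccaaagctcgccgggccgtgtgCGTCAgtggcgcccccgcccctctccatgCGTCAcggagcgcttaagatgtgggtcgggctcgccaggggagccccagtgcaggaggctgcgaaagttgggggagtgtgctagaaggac
Nr4a2: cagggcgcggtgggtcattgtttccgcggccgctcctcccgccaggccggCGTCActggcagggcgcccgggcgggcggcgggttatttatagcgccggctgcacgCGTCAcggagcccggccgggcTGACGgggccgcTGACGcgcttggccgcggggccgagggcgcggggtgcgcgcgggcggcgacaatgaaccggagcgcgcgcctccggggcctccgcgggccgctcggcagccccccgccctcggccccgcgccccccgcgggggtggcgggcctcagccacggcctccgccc
Nr4a3: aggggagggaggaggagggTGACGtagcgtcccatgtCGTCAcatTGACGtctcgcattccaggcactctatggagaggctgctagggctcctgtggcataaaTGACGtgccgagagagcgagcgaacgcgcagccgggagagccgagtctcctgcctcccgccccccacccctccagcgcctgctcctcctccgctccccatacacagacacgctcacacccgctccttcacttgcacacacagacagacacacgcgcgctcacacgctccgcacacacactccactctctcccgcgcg

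Among called genes with a mean of at least 1 CPM and no overlap between the ages, unnamed gene models and pseudogenes left aside, the largest falls besides Eomes and the immediate early genes were those of Tmem267, Ccl28, Dlk1, Ntf3, Serpinb8 and Mkrn3. Ntf3 (ENSMUSG00000049107, chr6:126101412-126166910), which encodes neurotrophin-3, a growth factor of granule cells, was at 5.57, 7.34 and 6.85 CPM at 2 months and 2.56, 3.37 and 2.11 CPM at 5 months. All 3 older mice were below all 3 younger ones. Ntf3 fell by 1.41 on the log2 scale (SE 0.20, adjusted p = 2.60e-05). Tmem267 (ENSMUSG00000074634, chr13:119488039-119611059) had 32, 53 and 43 read pairs at 2 months and 8, 16 and 21 at 5 months, and Ccl28 (ENSMUSG00000074715, chr13:119623819-119654359), a chemokine gene, had 35, 68 and 51 read pairs at 2 months and 13, 17 and 34 at 5 months. These low counts did not overlap between the ages, and the genes are neighbours on chromosome 13. Their log2 fold changes were -1.83 (SE 0.305, adjusted p = 0.000287) and -1.63 (SE 0.279, adjusted p = 0.000493). In the heterozygous mice the same age difference was -0.21 (adjusted p = 0.786) for Tmem267 and -0.17 (adjusted p = 0.886) for Ccl28, and the difference between the genotypes did not pass either (adjusted p = 0.551 and 0.849 without mouse 1). Tmem267 overlaps gene models on the opposite strand, which adds doubt to its counts. Dlk1 (ENSMUSG00000040856, chr12:109452823-109463336), an imprinted gene of the Notch ligand family, was at 3.26, 3.67 and 3.08 CPM at 2 months and 1.95, 0.891 and 0.497 CPM at 5 months and had a log2 fold change of -1.62 (SE 0.359, adjusted p = 0.0160). Serpinb8 (ENSMUSG00000026315, chr1:107590006-107610484), a protease inhibitor gene, fell from 5.76 ± 0.783 to 2.67 ± 0.40 CPM without mouse 1 (mean ± SD, n = 2 and 3). Its log2 fold change was -1.10 (adjusted p = 0.00116), and mouse 1 was at 3.84 CPM. Mkrn3 (ENSMUSG00000070527, chr7:62417593-62420139), an imprinted gene whose loss brings early puberty in people, fell from 5.32 ± 0.638 to 2.85 ± 0.313 CPM without mouse 1 (n = 2 and 3). Its log2 fold change was -0.90 (adjusted p = 0.00951), and mouse 1 was at 4.49 CPM. Mkrn3 overlaps another gene model on its strand. The older mice were below the younger ones in all 3 of these genes. The calls of Tmem267 and Ntf3 held in all these alternatives without mouse 1. Ccl28 (adjusted p = 0.0842), Dlk1 (adjusted p = 0.353) and Mkrn3 (adjusted p = 0.0706) lost their calls without mouse 3. Dlk1 (adjusted p = 0.254), Serpinb8 (adjusted p = 0.127) and Mkrn3 (adjusted p = 0.285) lost their calls without mouse 5. Dlk1 lost its call without mouse 9 (adjusted p = 0.0553). Dlk1 lost its call without mouse 11 (adjusted p = 0.0535). Dlk1 (adjusted p = 0.0684) and Mkrn3 (adjusted p = 0.149) lost their calls by DESeq2. Ccl28 lost its call with 11 libraries in the fit (adjusted p = 0.270). Log2 fold changes with mouse 1 were -1.66 for Tmem267, -1.42 for Ccl28, -1.59 for Dlk1, -1.29 for Ntf3, -0.93 for Serpinb8 and -0.82 for Mkrn3, none of them called (adjusted p from 0.339 to 0.60).

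Of 20 tested genes of myelin and mature oligodendrocytes 7 fell from 2 to 5 months. In this list 17 of 20 had a negative log2 fold change and the median was -0.17 (-0.28 with mouse 1), where all tested genes had a median of 0.000450, 49.9% were negative and 0.817% were called lower. Ugt8a (ENSMUSG00000032854, chr3:125865271-125938619), which makes the galactolipids of myelin, was at 67.1, 70.2 and 71.4 CPM at 2 months and 53.7, 53.7 and 45.9 CPM at 5 months. Cldn11 (ENSMUSG00000037625, chr3:31149920-31164324), the claudin that seals the myelin sheath, was at 109, 82.7 and 84.8 CPM at 2 months and 69.7, 67 and 66.7 CPM at 5 months. In both genes each older mouse was below each younger mouse, mouse 1 included. Ugt8a fell by 0.47 (SE 0.0633, adjusted p = 1.67e-05) and Cldn11 by 0.31 (SE 0.0521, adjusted p = 0.000373) on the log2 scale. Fa2h, which hydroxylates the fatty acids of these lipids, changed by -0.36 (adjusted p = 0.00169) and Mog, a glycoprotein of the outer sheath, by -0.30 (adjusted p = 0.0118). Also among those that fell were Mal (-0.22, adjusted p = 0.00258) and Tspan2 (-0.26, adjusted p = 0.000381), both membrane proteins of oligodendrocytes, and Mbp, the most abundant gene of the list, was short of the fold threshold at -0.18 (adjusted p = 0.00247). The list summed to 6695, 6133 and 5835 CPM at 2 months and 5286, 5108 and 5367 CPM at 5 months. The summed values of the ages did not overlap and mouse 1 was the highest. In the list of oligodendrocyte precursors and newly formed oligodendrocytes 3 of 16 fell, with a median of -0.075 (-0.10 with mouse 1): Gpr17, a receptor of cells about to myelinate, at -0.39 (adjusted p = 0.00628), Enpp6, an enzyme of newly formed oligodendrocytes, at -0.61 (adjusted p = 0.0380), and Tnr, the matrix protein tenascin-R, at -0.21 (adjusted p = 0.00205). That list summed to 645, 665 and 649 CPM at 2 months and 600.3, 596 and 616 CPM at 5 months. With all 6 libraries edgeR called 0 myelin genes lower, limma voom 7 and DESeq2 0, and without mouse 1 DESeq2 called 6. Without mouse 3 the number of myelin genes called lower was 4 in place of 7. The calls of Ugt8a and Cldn11 held in all these alternatives without mouse 1. Mog (adjusted p = 0.438), Mal (adjusted p = 0.201), Tspan2 (adjusted p = 0.148), Gpr17 (adjusted p = 0.283) and Enpp6 (adjusted p = 0.327) lost their calls without mouse 3. Fa2h (adjusted p = 0.102), Gpr17 (adjusted p = 0.0734), Enpp6 (adjusted p = 0.272) and Tnr (adjusted p = 0.212) lost their calls without mouse 5. Tnr lost its call without mouse 7 (log2 fold change -0.19). Mal lost its call without mouse 9 (log2 fold change -0.19). Mog (adjusted p = 0.0653) and Enpp6 (adjusted p = 0.192) lost their calls without mouse 11. Mog (adjusted p = 0.154), Gpr17 (adjusted p = 0.10) and Enpp6 (adjusted p = 0.313) lost their calls by DESeq2. Enpp6 lost its call with the GC and length offset (adjusted p = 0.0512). Tnr lost its call by limma voom (log2 fold change -0.1999). Enpp6 lost its call with non-robust dispersions (adjusted p = 0.0627). Gpr17 (adjusted p = 0.0776) and Enpp6 (adjusted p = 0.0652) lost their calls with 11 libraries in the fit. Mouse 1 included, no call was left (adjusted p from 0.426 to 0.846), with log2 fold changes of -0.44 for Ugt8a, -0.44 for Cldn11, -0.34 for Fa2h, -0.47 for Mog, -0.31 for Mal, -0.26 for Tspan2, -0.49 for Gpr17, -0.39 for Enpp6 and -0.067 for Tnr.

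Genes of the extracellular matrix and vessels were also among those that fell. Of 20 collagen and matrix genes 3 fell, with a median of -0.19 (-0.27 with mouse 1) and 16 of 20 negative, where 0.817% of all tested genes were called lower and 49.9% were negative. Col3a1 (ENSMUSG00000026043, chr1:45311538-45349706), a fibrillar collagen of vessel walls and meninges, was at 7.96, 5.41 and 6.93 CPM at 2 months and 3.16, 3.82 and 3.11 CPM at 5 months. Serpinh1 (ENSMUSG00000070436, chr7:99345376-99353239), the chaperone of collagen in the endoplasmic reticulum, was at 47.6, 34 and 35.3 CPM at 2 months and 28.4, 22.3 and 23.7 CPM at 5 months. All 3 older mice were below all 3 younger mice in both. Col3a1 had a log2 fold change of -0.87 (SE 0.194, adjusted p = 0.00819) and Serpinh1 one of -0.48 (SE 0.0871, adjusted p = 0.000879). Nid1, which links laminin to collagen in basement membranes, also fell (-0.38, adjusted p = 0.00788). Among 14 endothelial and pericyte genes 1 fell, beside the same 0.817%, with a median of -0.078 (-0.14 with mouse 1). It was Tek (ENSMUSG00000006386, chr4:94739289-94874976), the angiopoietin receptor of endothelial cells, at 18, 17.8 and 17.2 CPM at 2 months and 11.8, 12.2 and 12.8 CPM at 5 months, without overlap. Tek had a log2 fold change of -0.51 (SE 0.112, adjusted p = 0.00688). Of 13 meningeal and fibroblast genes Col3a1 fell and Ptgds rose (0.25, adjusted p = 0.000124), beside 0.817% and 1.02% of all tested genes, with a median of -0.082 (-0.15 with mouse 1). Ptgds had -0.11 (adjusted p = 0.863) with all 6 libraries, the opposite sign, and mouse 1 had the highest value of all. The meningeal list summed to 1461, 879.5 and 901 CPM at 2 months and 982, 1007 and 963 CPM at 5 months, with mouse 1 alone far above the rest and Ptgds as its most abundant gene. The part of the meninges, whose amount on each cerebellum is not known, in the falls of matrix genes was not tested. Serpinh1 (adjusted p = 0.0540), Nid1 (adjusted p = 0.0867), Tek (adjusted p = 0.177) and Ptgds (adjusted p = 0.0655) lost their calls without mouse 3. Col3a1 (adjusted p = 0.331), Serpinh1 (adjusted p = 0.102), Nid1 (adjusted p = 0.294) and Tek (adjusted p = 0.124) lost their calls without mouse 5. Col3a1 lost its call without mouse 11 (adjusted p = 0.0617). Col3a1 (adjusted p = 0.124), Nid1 (adjusted p = 0.109) and Tek (adjusted p = 0.0770) lost their calls by DESeq2. Serpinh1 (adjusted p = 0.210) and Ptgds (adjusted p = 0.302) lost their calls with 11 libraries in the fit. In the 6-library fit none of these passed (adjusted p from 0.366 to 0.863), and the log2 fold changes were -1.0 for Col3a1, -0.65 for Serpinh1, -0.39 for Nid1, -0.52 for Tek and -0.11 for Ptgds.

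By the same rule, the genes with the largest rises were of several kinds. Ptk2b (ENSMUSG00000059456, chr14:66153257-66281052), the calcium-activated tyrosine kinase Pyk2, was at 12.2, 8.34 and 10.2 CPM at 2 months and 18.4, 17.6 and 17 CPM at 5 months. Abca8a (ENSMUSG00000041828, chr11:110025634-110095978), a lipid transporter, was at 6.66, 8.07 and 7.31 CPM at 2 months and 16.4, 12.9 and 14.5 CPM at 5 months. Fam163b (ENSMUSG00000009216, chr2:27110380-27142491) was at 9.34, 7.47 and 8.01 CPM at 2 months and 13.3, 14.7 and 15.6 CPM at 5 months. In these genes every older mouse was above every younger mouse, mouse 1 included. The rule asked for no overlap without mouse 1, and 17.6% of all tested genes had none with all 6 libraries. Ptk2b rose by 0.94 (SE 0.124, adjusted p = 8.02e-06), Abca8a by 0.92 (SE 0.137, adjusted p = 5.75e-05) and Fam163b by 0.91 (SE 0.133, adjusted p = 4.32e-05) on the log2 scale. Fmo2 (ENSMUSG00000040170, chr1:162874317-162898726), a flavin-containing monooxygenase, was at 4.42, 6.47 and 5.23 CPM at 2 months and 10.9, 10.3 and 14 CPM at 5 months, again without overlap, with a log2 fold change of 1.0 (SE 0.160, adjusted p = 0.000193). Cmtm7 (ENSMUSG00000032436, chr9:114756836-114781856), which overlaps a gene model on the opposite strand, changed by 0.95 (adjusted p = 0.00857), and Fam205c (ENSMUSG00000050141, chr4:42868004-42874234) by 0.96 (adjusted p = 0.0187). The largest rises among these came from few read pairs: Bdkrb2 (ENSMUSG00000021070, chr12:105563226-105595237), the bradykinin B2 receptor, had 5, 10 and 4 read pairs at 2 months and 29, 18 and 25 at 5 months and a log2 fold change of 1.61 (adjusted p = 0.0353). Cda (ENSMUSG00000028755, chr4:138338424-138367992), cytidine deaminase, had 31, 11 and 21 read pairs at 2 months and 48, 49 and 54 at 5 months and changed by 1.48 (adjusted p = 0.00258). The ages did not overlap in these genes. Rps29 (ENSMUSG00000034892, chr12:69157722-69159186), a ribosomal protein gene with many copies in the genome, was at 2.39, 1.07 and 1.08 CPM at 2 months and 3.03, 2.10 and 2.05 CPM at 5 months, and Ndufa12 (ENSMUSG00000020022, chr10:94198720-94221443), a subunit of complex I, at 56.7, 15.7 and 17.5 CPM at 2 months and 27.4, 37.3 and 27 CPM at 5 months. Mouse 1 was within the 5-month range or above it in both, so the ages overlap with all 6 libraries, and read pairs of such genes can fall on pseudogene copies. Rps29 had a log2 fold change of 1.15 (adjusted p = 0.0466) and Ndufa12 one of 0.88 (adjusted p = 0.0379). The calls of Ptk2b, Abca8a and Fam163b held in all these alternatives without mouse 1. Cmtm7 (adjusted p = 0.259), Fam205c (adjusted p = 0.277), Bdkrb2 (adjusted p = 0.134), Cda (adjusted p = 0.254), Rps29 (adjusted p = 0.328) and Ndufa12 (adjusted p = 0.355) lost their calls without mouse 3. Fmo2 (adjusted p = 0.0596), Cmtm7 (adjusted p = 0.0698), Fam205c (adjusted p = 0.202), Bdkrb2 (adjusted p = 0.508), Rps29 (adjusted p = 0.327) and Ndufa12 (adjusted p = 0.272) lost their calls without mouse 5. Fam205c (adjusted p = 0.0686), Bdkrb2 (adjusted p = 0.0839) and Rps29 (adjusted p = 0.131) lost their calls without mouse 7. Fam205c (adjusted p = 0.0861), Bdkrb2 (adjusted p = 0.116) and Rps29 (adjusted p = 0.0772) lost their calls without mouse 11. Cmtm7 (adjusted p = 0.128), Fam205c (adjusted p = 0.203) and Cda (adjusted p = 0.0504) lost their calls by DESeq2. Rps29 lost its call with the GC and length offset (adjusted p = 0.0512). Rps29 lost its call by limma voom (adjusted p = 0.0613). Bdkrb2 (adjusted p = 0.0694) and Rps29 (adjusted p = 0.0757) lost their calls with non-robust dispersions. Fmo2 (adjusted p = 0.155), Fam205c (adjusted p = 0.0858), Bdkrb2 (adjusted p = 0.0556), Rps29 (adjusted p = 0.0707) and Ndufa12 (adjusted p = 0.404) lost their calls with 11 libraries in the fit. Log2 fold changes with mouse 1 were 0.79 for Ptk2b, 0.99 for Abca8a, 0.81 for Fam163b, 1.12 for Fmo2, 0.97 for Cmtm7, 1.07 for Fam205c, 1.75 for Bdkrb2, 1.09 for Cda, 0.66 for Rps29 and 0.035 for Ndufa12, none of them called (adjusted p from 0.339 to 0.981).

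Among the genes that rose were 2 glucocorticoid targets and the clock gene Per3. Of 15 glucocorticoid targets tested 12 had a positive log2 fold change and the median was 0.23 (0.24 with mouse 1), beside 1.02% called higher over all tested genes. Zbtb16 (ENSMUSG00000066687, chr9:48654297-48836222), a zinc finger repressor induced by glucocorticoids in many tissues, was at 18.8, 26.6 and 24 CPM at 2 months and 43.7, 35.5 and 43.1 CPM at 5 months. All 3 older mice were above all 3 younger ones. Zbtb16 rose by 0.68 (SE 0.0879, adjusted p = 2.23e-05) and Hif3a, a relative of the hypoxia factors, by 0.30 (adjusted p = 0.0292) on the log2 scale. Plin4, a lipid droplet protein named after its values were seen, was at 13.8, 22.8 and 16.6 CPM at 2 months and 41.9, 31.8 and 51.5 CPM at 5 months and did not pass (1.07, adjusted p = 0.328). Fkbp5, the chaperone that holds back the glucocorticoid receptor, was at 0.54 (adjusted p = 0.390) and Dusp1, which is on both this list and the immediate early list, at -0.82. Of 19 clock genes the median was 0.044 (0.088 with mouse 1). Per3 (ENSMUSG00000028957, chr4:151003652-151044665), a period gene, was at 53.6, 82.4 and 82.3 CPM at 2 months and 92.3, 98 and 103 CPM at 5 months. The ages did not overlap, and mouse 1 was far below its age group. Per3 had a log2 fold change of 0.25 (SE 0.0516, adjusted p = 0.00395), while the core genes Arntl, Clock, Per1 and Per2 were at -0.033, -0.085, -0.084 and 0.11 and did not pass. Per3 overlaps Camta1 on the same strand. Hif3a (adjusted p = 0.0816) and Per3 (adjusted p = 0.133) lost their calls without mouse 3. Hif3a (adjusted p = 0.550) and Per3 (adjusted p = 0.151) lost their calls without mouse 5. Hif3a (adjusted p = 0.212) and Per3 (adjusted p = 0.0573) lost their calls without mouse 11. Hif3a lost its call by DESeq2 (adjusted p = 0.244). Hif3a lost its call with non-robust dispersions (adjusted p = 0.0716). Zbtb16 (adjusted p = 0.389), Hif3a (adjusted p = 0.726) and Per3 (adjusted p = 0.0526) lost their calls with 11 libraries in the fit. Mouse 1 included, no call was left (adjusted p from 0.362 to 0.689), with log2 fold changes of 0.82 for Zbtb16, 0.51 for Hif3a and 0.43 for Per3.

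Among neuronal markers 2 of granule cells fell, 2 of interneurons rose and none of Purkinje cells was called, where 0.817% of all tested genes fell and 1.02% rose. Of 14 granule cell genes 2 fell (median -0.048, with mouse 1 -0.066). Gabra6 (ENSMUSG00000020428, chr11:42306437-42321072) was at 643, 872 and 869 CPM at 2 months and 736, 773 and 761 CPM at 5 months. Neurod1 (ENSMUSG00000034701, chr2:79452521-79456751), a transcription factor of granule cells, was at 442, 571 and 546 CPM at 2 months and 462, 472 and 468 CPM at 5 months. Mice 3 and 5 were above the 3 older mice in both, and mouse 1 was below the older mice. Gabra6, also the single gene that fell of 18 GABA and glycine receptor genes (median -0.033, with mouse 1 0.011 and so of opposite sign), changed by -0.20 (adjusted p = 0.000217) and Neurod1 by -0.26 (adjusted p = 7.11e-06); Neurod1 overlaps Cerkl on its strand. Of 12 genes of molecular layer and Golgi interneurons 2 rose (median 0.085, with mouse 1 0.051). Nos1 (ENSMUSG00000029361, chr5:117781032-117958840), the neuronal nitric oxide synthase, was at 181, 165 and 157 CPM at 2 months and 200.2, 207 and 196 CPM at 5 months. Slc6a5 (ENSMUSG00000039728, chr7:49910146-49963856), the glycine transporter of Golgi cells, was at 48.8, 42.2 and 44 CPM at 2 months and 54.5, 52.2 and 49.9 CPM at 5 months. The older mice were above the younger ones in both genes. Nos1 rose by 0.32 (SE 0.0402, adjusted p = 3.11e-06) and Slc6a5 by 0.28 (SE 0.0647, adjusted p = 0.0115) on the log2 scale. Of 14 Purkinje cell genes 0 were called by edgeR, 0 by DESeq2 and 0 by limma voom without mouse 1 (median -0.038, with mouse 1 -0.12). By edgeR 6 of the 14 had an unadjusted p below 0.05, 5 of them lower and 1 higher, where 13.8% of all tested genes had one. In the list 9 of 14 were negative, and 13 of 14 with mouse 1, where 49.9% and 49.8% of all tested genes were. Among the 14, Pcp2, Calb1 and Itpr1 were at 0.037, -0.085 and 0.0016. The Purkinje cell list summed to 11455, 10225 and 10062 CPM at 2 months and 9949.8, 9943 and 10168 CPM at 5 months and the granule cell list to 9025, 9065 and 8837 CPM at 2 months and 8293, 8971 and 8542 CPM at 5 months. Mouse 1 was highest in the Purkinje cell sum and the other 5 mice lay close together.

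A few genes of ion channels, receptors and release proteins were called, where 1.02% of all tested genes rose and 0.817% fell. Of 28 voltage-gated channel genes 1 rose (median 0.019, with mouse 1 0.076): Kcnc4 (ENSMUSG00000027895, chr3:107438303-107459552), a fast potassium channel of the Kv3 family, at 63.3, 56.2 and 55.7 CPM at 2 months and 77.4, 70.7 and 67.2 CPM at 5 months. Each older mouse was above each younger mouse. Kcnc4 rose by 0.36 (SE 0.0604, adjusted p = 0.000349) on the log2 scale. Of 24 glutamate receptor genes 1 rose and 1 fell (median 0.005, with mouse 1 0.033). Grm4 (ENSMUSG00000063239, chr17:27422387-27521403), the metabotropic receptor at parallel fibre terminals, was at 673, 645 and 628 CPM at 2 months and 497, 540.0 and 513 CPM at 5 months. Grik3, a kainate receptor subunit, was at 95.4, 95.9 and 99.3 CPM at 2 months and 117, 112 and 119 CPM at 5 months. Neither gene overlapped between the ages. Grm4 had a log2 fold change of -0.30 (SE 0.0354, adjusted p = 1.14e-06) and Grik3 one of 0.25 (SE 0.0470, adjusted p = 0.00113). Of 32 neurotransmitter release genes 1 fell (median -0.03, with mouse 1 -0.076): Unc13a, which primes synaptic vesicles and overlaps Colgalt1 on the opposite strand, at -0.20 (adjusted p = 0.000373). Of 11 perineuronal net genes the 1 that fell was Tnr, and the median was 0.057 (0.015 with mouse 1). The call of Kcnc4 held in all these alternatives without mouse 1. Gabra6 (log2 fold change -0.1998), Slc6a5 (adjusted p = 0.264) and Grik3 (adjusted p = 0.119) lost their calls without mouse 3. Slc6a5 (adjusted p = 0.127) and Unc13a (adjusted p = 0.0698) lost their calls without mouse 5. Gabra6 (log2 fold change -0.18) and Unc13a (log2 fold change -0.19) lost their calls without mouse 7. Slc6a5 lost its call by DESeq2 (adjusted p = 0.132). Gabra6 lost its call with the GC and length offset (log2 fold change -0.19). Gabra6 lost its call by limma voom (log2 fold change -0.1994). Gabra6 (log2 fold change -0.1982) and Unc13a (log2 fold change -0.1985) lost their calls without a filter. Gabra6 (adjusted p = 0.197), Neurod1 (adjusted p = 0.355), Nos1 (adjusted p = 0.0917), Grm4 (adjusted p = 0.195) and Unc13a (adjusted p = 0.408) lost their calls with 11 libraries in the fit. In the 6-library fit none of these passed (adjusted p from 0.472 to 0.835), and the log2 fold changes were -0.069 for Gabra6, -0.15 for Neurod1, 0.27 for Nos1, 0.22 for Slc6a5, 0.30 for Kcnc4, -0.33 for Grm4, 0.26 for Grik3 and -0.17 for Unc13a.

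Single genes changed in several further lists, where 1.02% of all tested genes rose and 0.817% fell. Of 15 astrocyte and Bergmann glia genes 1 rose and 1 fell (median -0.0017, with mouse 1 -0.078). Aqp4 (ENSMUSG00000024411), the water channel of astrocyte endfeet, was at 399, 411 and 431 CPM at 2 months and 339, 363 and 322 CPM at 5 months. All 3 older mice were lower. Aqp4 had a log2 fold change of -0.30 (SE 0.0416, adjusted p = 0.000134), and Fgfr3, a growth factor receptor of astrocytes, rose by 0.21 (adjusted p = 0.00885). Of 16 complement and MHC class I genes Serping1, the inhibitor of C1, rose (0.41, adjusted p = 0.0187), with a median of 0.17 (-0.088 with mouse 1, the opposite sign). Of 18 genes of immature neurons and neurite growth Nnat, the imprinted gene of neuronatin, rose (0.38, adjusted p = 0.000656), with a median of 0.022 (-0.075 with mouse 1, the opposite sign). Nnat was at 70.3, 40.5 and 41 CPM at 2 months and 51, 57.7 and 50.5 CPM at 5 months, with mouse 1 above all others. Of 13 mitochondrially encoded genes mt-Co3, a subunit of cytochrome oxidase, and mt-Atp6, a subunit of ATP synthase, fell at -0.23 (adjusted p = 0.0399) and -0.30 (adjusted p = 0.0157), with a median of -0.058 (-0.12 with mouse 1). These are neighbouring genes on the mitochondrial genome, and their read pairs are not fully separate. The call of Aqp4 held in all these alternatives without mouse 1. Fgfr3 (adjusted p = 0.167), Serping1 (adjusted p = 0.231) and Nnat (adjusted p = 0.0623) lost their calls without mouse 3. Fgfr3 (adjusted p = 0.202), Serping1 (adjusted p = 0.272), mt-Co3 (adjusted p = 0.70) and mt-Atp6 (adjusted p = 0.622) lost their calls without mouse 5. Fgfr3 lost its call without mouse 7 (log2 fold change 0.1978). mt-Co3 lost its call without mouse 9 (adjusted p = 0.112). Fgfr3 (adjusted p = 0.0558), Serping1 (adjusted p = 0.0796), mt-Co3 (adjusted p = 0.209) and mt-Atp6 (adjusted p = 0.0550) lost their calls without mouse 11. Fgfr3 (adjusted p = 0.0849), Serping1 (adjusted p = 0.183), mt-Co3 (adjusted p = 0.198) and mt-Atp6 (adjusted p = 0.105) lost their calls by DESeq2. Fgfr3 (log2 fold change 0.19) and mt-Co3 (adjusted p = 0.0713) lost their calls with the GC and length offset. mt-Co3 lost its call with non-robust dispersions (adjusted p = 0.0815). Serping1 (adjusted p = 0.0764) and mt-Co3 (adjusted p = 0.121) lost their calls with 11 libraries in the fit. Log2 fold changes with mouse 1 were -0.28 for Aqp4, 0.17 for Fgfr3, 0.31 for Serping1, 0.072 for Nnat, -0.31 for mt-Co3 and -0.22 for mt-Atp6, none of them called (adjusted p from 0.628 to 0.905).

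In 11 lists no gene was called by edgeR without mouse 1 or with it. Microglia genes, 13 tested, had a median of 0.13 (-0.0085 with mouse 1, the opposite sign), the 18 interferon response genes one of 0.13 (-0.069 with mouse 1, the opposite sign) with 17 of 18 positive and 6 with mouse 1, and the 23 cholesterol synthesis genes one of -0.021 (-0.10 with mouse 1). The 18 heat shock and cold response genes had a median of -0.074 (-0.17 with mouse 1), the 19 genes of DNA methylation and chromatin one of -0.021 (0.041 with mouse 1, the opposite sign) and the 21 clustered protocadherin beta genes, which give neurons their surface identity, one of 0.00011 (-0.029 with mouse 1, the opposite sign). Of 17 proliferation genes 9 had enough read pairs to be tested, with a median of 0.017 (0.085 with mouse 1), and the list summed to 34, 30.8 and 32.9 CPM at 2 months and 30.7, 32.6 and 34 CPM at 5 months. Among markers of other tissue, 6 blood cell genes had a median of 0.21 (0.028 with mouse 1), 7 forebrain neuron genes 0.10 (0.062 with mouse 1) and 2 brainstem and midbrain genes 0.74 (0.27 with mouse 1). With mouse 1 fewer of some lists were tested: 8 proliferation, 5 blood cell and 1 brainstem genes. All 14 choroid plexus genes were tested, 13 were negative and the median was -0.59 (-0.49 with mouse 1), but the 3 older mice differed among themselves widely, as the summed values of mice 7, 9 and 11 show. At an unadjusted p below 0.05 there were 3 microglia, 0 interferon, 3 cholesterol, 6 heat shock, 5 chromatin, 2 protocadherin, 1 proliferation, 0 blood cell, 0 forebrain, 1 brainstem and 1 choroid plexus genes, where 13.8% of all tested genes were. Without mouse 1 DESeq2 called none of them either, and limma voom called 2 chromatin genes and 1 brainstem gene higher and none of the rest. The part of the choroid plexus in the other results was not tested. The sex chromosome list, kept as a check of the mice, had 4 genes tested and 0 called by edgeR, DESeq2 or limma voom, with 0 at an unadjusted p below 0.05.

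**Figure D4:**
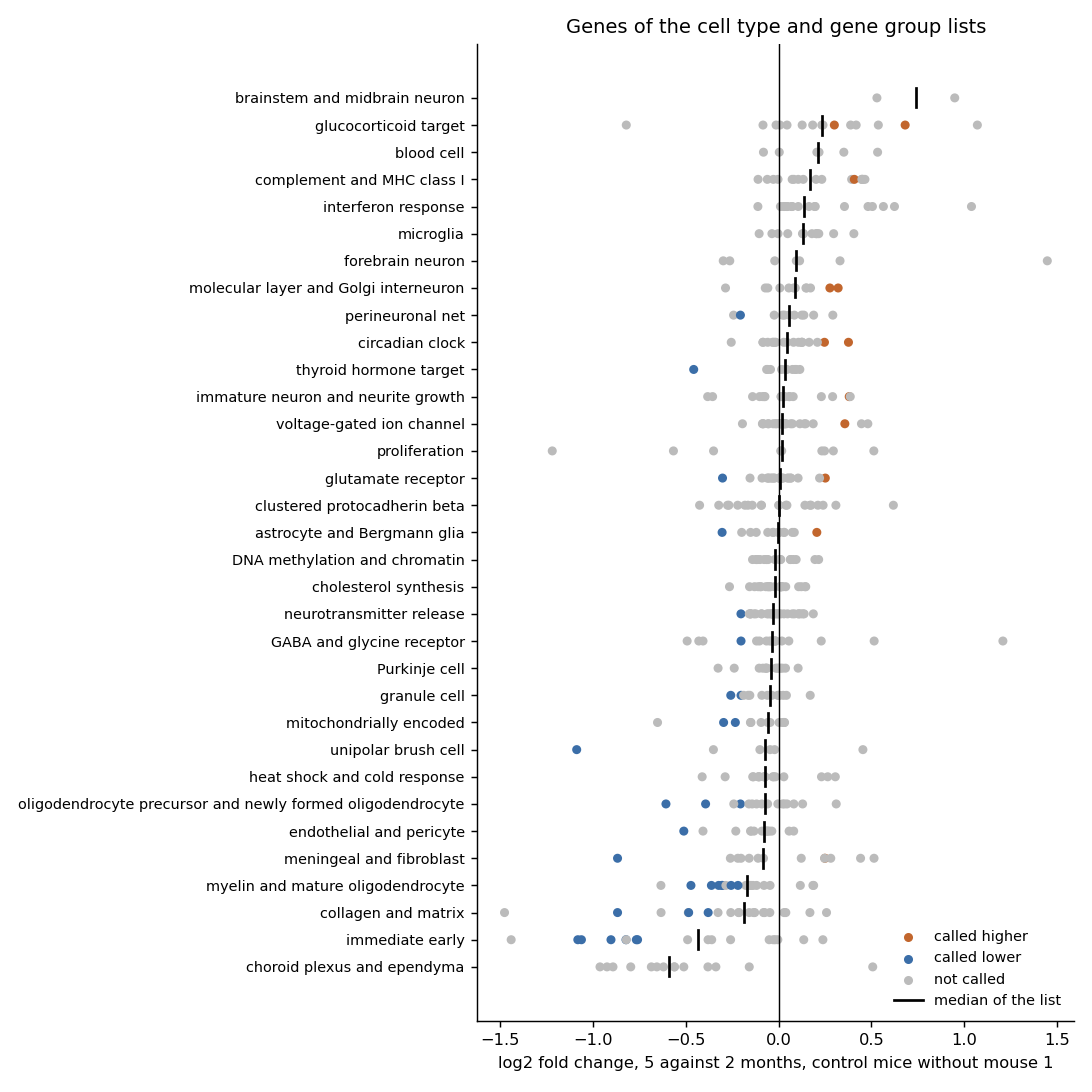
Log2 fold change at 5 against 2 months without mouse 1 for each tested gene of the lists (points), ordered by the median of the list (black bar). Orange points were called higher and blue points lower by edgeR; immediate early, myelin and collagen lists have blue points and medians below 0, and the choroid plexus list has the lowest median with no called gene.

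The called genes were looked up in libraries that the fit had not used. In mouse 1, 125 of the 169 genes that rose were below all 3 of the older mice (74%), against 47.9% of all tested genes with a positive change, and 105 of the 135 that fell were above all 3 (77.8%, against 48.5%). The older mice in this count are those that made the calls, so the shares are a description. The heterozygous mice share no library with the controls. Among them 16423 genes were tested between the ages, 435 were called higher and 408 lower (2.65% and 2.48%). Of the 168 control genes that rose and could be tested there, 164 had a positive change and 88 were called higher (52.4%, against 4.85% of all tested genes positive in controls), and 1 was called lower. Of the 134 that fell, 131 had a negative change and 73 were called lower (54.5%, against 4.61%), and 0 were called higher. Over all tested genes 66.4% of those positive and 64.3% of those negative in controls had the same sign in heterozygous mice. Ntf3 was at 5.93, 6.41 and 6.99 CPM at 2 months and 2.25, 3.70 and 2.98 CPM at 5 months in heterozygous mice 2, 4 and 6 and 8, 10 and 12. Abca8a was at 6.18, 6.64 and 6.02 CPM at 2 months and 13.7, 11.9 and 11.9 CPM at 5 months in the same order. The ages did not overlap in either gene, and their changes were -1.10 (adjusted p = 0.000691) and 0.99 (adjusted p = 2.91e-05). Eomes was at 44.9, 33.4 and 43.2 CPM at 2 months and 29.2, 18.2 and 14.2 CPM at 5 months, also without overlap, yet the 3 older mice were spread and the change of -1.0 (adjusted p = 0.193) did not pass. Nr4a3 was at 38.6, 26 and 35.3 CPM at 2 months and 21.8, 6.29 and 4.65 CPM at 5 months, with mouse 8 well above mice 10 and 12, and its -1.65 (adjusted p = 0.263) did not pass either. By lists, the immediate early genes had 7 of 18 called lower (median -0.55) and the myelin genes 11 of 20 (median -0.27) in heterozygous mice. Microglia genes, which were not called in controls, had 8 of 14 called higher there (median 0.58), and the complement and MHC class I genes 8 of 16 (median 0.55).

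Whether the age change differs between the genotypes was tested as an interaction. With all 12 cerebellum libraries edgeR called 0 of 16845 genes (0%), and DESeq2 called 4. By edgeR 646 had an unadjusted p below 0.05, where uniform p-values would give 842. Without control mouse 1 edgeR called 3 of 17177 genes (0.0175%), B2m, Pclo and Gm3294, named because they are few. There 1024 had an unadjusted p below 0.05, where uniform p-values would give 859. B2m, the light chain of MHC class I, was at 81.8, 62.9 and 61.7 CPM at 2 months and 53.1, 58.2 and 62 CPM at 5 months in controls and at 63.4, 72.1 and 63 CPM at 2 months and 95.5, 90.4 and 101 CPM at 5 months in heterozygous mice. Its ages overlapped in controls, and it was higher in all 3 older heterozygous mice. Its change was -0.11 (adjusted p = 0.450) in controls, 0.54 (adjusted p = 7.13e-06) in heterozygous mice, and the difference 0.65 (adjusted p = 0.00234). None of the microglia or complement genes other than B2m passed this test without mouse 1, so their calls in heterozygous mice alone do not show a difference between the genotypes. For the named genes that were called in controls the adjusted p of the difference was 0.543 or more without mouse 1.

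**Figure D5:**
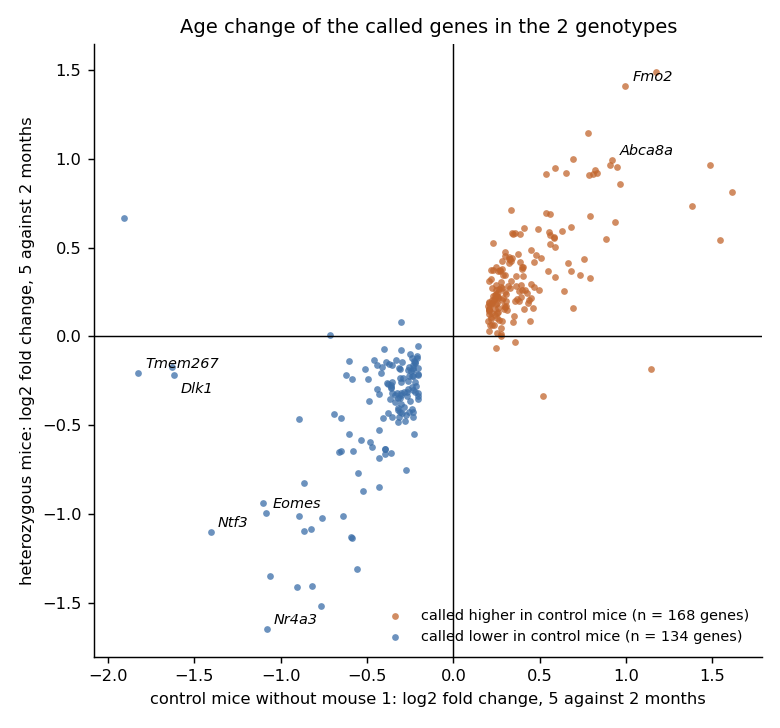
Log2 fold change at 5 against 2 months in control mice without mouse 1 (horizontal axis) and in heterozygous mice (vertical axis), 1 point for each gene that was called in controls and tested in both. Orange genes were called higher and blue genes lower in controls; most lie in the quadrant of the same sign, and Tmem267 and Dlk1 are lower in controls with values near 0 in heterozygous mice.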

How the data were processed

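Libraries of total RNA from the cerebellum were sequenced as read pairs by the authors, who deposited raw counts per gene for each mouse. The submitters' processing notes give trimming with Trimmomatic 0.30, alignment with HISAT2 2.0.1 to mm10 and counting with HTSeq 0.6.1; the mode, strand setting and annotation release of the counting are not given in the sources used here. Of the 46078 genes counted, 45229 (98.2%) were found in GENCODE M21, which gave symbols, positions, GC content and overlaps. The total per library ranged from 13123582 to 16266434 counts, and no other depth is known. Genes were kept by filterByExpr of edgeR (minimum count 10, minimum total 15), scaled by TMM and tested with the quasi-likelihood F test of edgeR 4.0.16 (robust) in R 4.3.3, with age as the single term; p-values were adjusted by Benjamini-Hochberg over all tested genes, and a gene was called at an adjusted p below 0.05 and a log2 fold change beyond 0.2. The same fit was made without mouse 1, on the 6 heterozygous libraries, and with age, genotype and their interaction on 12 and 11 libraries (adjusted p below 0.05, no fold threshold). Alternatives were DESeq2 1.42.0, its size factors in edgeR, no filter, a loess offset for GC content and transcript length (span 0.4), no fold threshold, non-robust dispersions, limma voom with sample quality weights (limma 3.58.1), the control contrast in a fit of 12 or 11 libraries, and leaving out each library in turn. The voom fit without mouse 1 and the alternatives of single genes without mouse 1, of the immediate early and myelin counts, of the heterozygous fits and of the interaction count on 11 libraries were chosen after seeing the data. The named genes are, in each direction, the 10 called genes with the largest log2 fold change, a mean of at least 1 CPM and no overlap between the ages in the libraries of the fit, without unnamed gene models and pseudogenes; called members of the lists; and markers that check the tissue. Some genes chosen by these rules are not reported here. The 34 lists hold markers of 14 cell types and 20 gene groups, and the members and lists were chosen with earlier results of these data known. CPM of the cerebellum was scaled by TMM over its 12 libraries; CPM of cortex and cord, from a separate table, used library totals and was not tested against the cerebellum. Promoter sequences are from RefSeq (GRCm38.p6); 44 of the 57 genes chosen by these rules have an entry. The pipeline was tested on simulated data.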

Additional observations from a re-analysis of the deposited data

Results flagged for a closer look

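3 genes differed between the genotypes in their change with age by the interaction test of edgeR on 11 libraries, control mouse 1 left out; each value is the log2 change in heterozygous mice minus that in controls. B2m (ENSMUSG00000060802, chr2:122147686-122153083), the light chain of MHC class I, differed by 0.65 (SE 0.0908, adjusted p = 0.00234), with -0.11 in controls and 0.54 in heterozygous mice. With all 12 libraries the adjusted p of B2m was 0.459, and with each of the 11 libraries left out in turn it ran from 0.000395 to 0.115. Pclo (ENSMUSG00000061601, chr5:14514918-14863459), a scaffold protein of the presynaptic active zone, differed by -0.30 (SE 0.0555, adjusted p = 0.0398), with -0.034 in controls and -0.33 in heterozygous mice. Its values were 326, 599 and 612 CPM at 2 months and 586, 599.5 and 590.1 CPM at 5 months in controls, and 582, 578 and 606 CPM and 471, 491 and 439 CPM in heterozygous mice, where every older mouse was below every younger one. With all 12 libraries the adjusted p of Pclo was 0.922, and with each of the 11 libraries left out in turn it ran from 0.00274 to 0.469. Gm3294 (ENSMUSG00000092090, chr6:28981634-29028922), a long noncoding RNA, differed by -0.70 (SE 0.123, adjusted p = 0.0334), with -0.12 in controls and -0.82 in heterozygous mice. Its values were 22.9, 28.6 and 29.2 CPM at 2 months and 25.4, 27.5 and 26.7 CPM at 5 months in controls, and 28.9, 24.9 and 26.4 CPM and 17, 14.9 and 13.8 CPM in heterozygous mice, where every older mouse was below every younger one. With all 12 libraries the adjusted p of Gm3294 was 0.459, and with each of the 11 libraries left out in turn it ran from 0.00320 to 0.386. The number of such genes on 11 libraries was 5 by DESeq2, 59 without a filter, 1 with the GC and length offset, and 0 to 23 with a library left out, 23 without heterozygous mouse 8 and 0 without control mouse 3 or 5. Patl2 overlaps B2m on the opposite strand, gene models overlap Pclo on both strands and a microRNA gene lies within Gm3294.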

How the results depend on the processing

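No paired analysis was possible because the mice of the 2 ages are different animals and share no replicate numbers. On 6 libraries, where edgeR called 0 and 0, the genes called higher and lower were 14 and 21 by DESeq2, 8 and 9 without a filter, 123 and 110 by limma voom, 15 and 12 with 12 libraries in the fit, and 0 and 1 with the GC and length offset; size factors of DESeq2, no fold threshold and non-robust dispersions gave 0 and 0. With each library left out they ran from 0 to 169 and from 0 to 135, and were above 0 without mouse 1 alone. Without mouse 1 the 169 and 135 became 75 and 69 by DESeq2 and 100 and 74 with 11 libraries in the fit. With a further library left out they ran from 43 to 196 and from 54 to 218; where 1 library is left at 2 months, it is assumed to vary like the other group. Of the genes called by DESeq2, 69 and 67 were among the 169 and 135. The interaction count was 0 on 12 libraries, 4 by DESeq2, 3 without a filter, 3 without control mouse 1, and 0 to 3 with each library left out. In heterozygous mice the 435 and 408 genes were 266 and 321 by DESeq2, and ran from 159 to 649 and from 151 to 617 with a library left out. On 6 libraries these genes changed sign: Ndufa12 at -0.28 (adjusted p = 0.762) without mouse 3, -0.24 (adjusted p = 0.829) without mouse 5 and -0.13 (adjusted p = 0.962) without mouse 9 (0.88 without mouse 1); Gabra6 at 0.00418 (adjusted p = 0.991) without mouse 3 (-0.20 without mouse 1); Tnr at 0.026 (adjusted p = 0.933) without mouse 5 (-0.21 without mouse 1); Nnat at -0.066 (adjusted p = 0.888) without mouse 3 and -0.059 (adjusted p = 0.908) without mouse 5 (0.38 without mouse 1); and Ptgds at 0.25 (adjusted p = 0.000124) without mouse 1 and 0.24 (adjusted p = 0.292) by limma voom. From the fit without mouse 1, Ptgds changed sign with all 6 libraries, at -0.11 (adjusted p = 0.863). DESeq2 gave no adjusted p for Bdkrb2 and Rps29 without mouse 1. The cause of these changes was not tested. Of the other values of single genes without mouse 1, 205 with a library left out and 339 with another setting kept direction and call, and 80 and 114 kept direction and lost the call. In the fit of 6 libraries 278 and 317 stayed short of the thresholds with the same direction, and 56 and 80 passed them. There are 2 or 3 mice a group and no recorded batch, and the smallest change that could be detected was not tested.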
